A study of Mus musculus with 8 samples.

Results

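Reads and assembled junctions of the mouse kappa light-chain J segments (IGKJ1 to IGKJ5) and of the kappa constant region (IGKC) were compared between pro-B cells of Setd2 knockout and control mice. The segments were taken as every row of the light-chain read tables named IGKC or IGKJ, which gave 6 of the 149 light-chain segments. IGKJ3 has a row as well, although it is not known to give working kappa chains in the mouse. The junctions were the complete light-chain contigs whose CDR3 starts with cysteine and ends with phenylalanine and which carry 1 Jk label. These numbered 3103 of 3954 light-chain contigs, 624 in knockouts and 2479 in controls, and the 3103 held IGKJ1, IGKJ2, IGKJ4 or IGKJ5. Of the other complete contigs, 26 had no J gene and 1 had a lambda J gene.

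The samples were 4 Setd2 knockouts and 4 controls, each of primary B220+ Cd43+ IgM- CD25- cells from untreated mice aged 8 weeks, sorted out of bone marrow. Setd2 encodes a histone methyltransferase that acts on histone H3. The labels give the genetic alteration only as Setd2 knockout or control, without the allele, the driver of the deletion or the animals behind a replicate number, so the p-values cover sample-to-sample spread alone, and part of that may be technical. Setd2 RNA levels were not analysed here.

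A kappa chain is made by joining a V segment to a J segment, and splicing then links the joined exon to IGKC. IGKJ1 lies nearest to the V segments and IGKJ5 nearest to IGKC, so a cell that has joined to IGKJ1 or IGKJ2 can still replace that join with a V segment joined to IGKJ4 or IGKJ5. Below, IGKJ1 and IGKJ2 are called upstream and IGKJ4 and IGKJ5 downstream. The light-chain locus is mostly rearranged after the pro-B stage, and the RNA of these samples also held class-switched heavy chains. Switched constant regions made up 31.8, 41.1, 6.69 and 44.2% of heavy constant-region reads in knockouts 1 to 4, against 52.6, 57.6, 51.0 and 52.8% in controls 1 to 4. The 2 groups did not overlap (two-sided exact permutation p = 0.0286, n = 4 each, the smallest p that 70 arrangements allow). IGHD, which marks mature naive B cells, made up 0.759, 0.731, 0.618 and 0.467% of heavy constant-region reads in knockouts, against 0.651, 0.977, 0.970 and 0.840% in controls, and these overlapped (exact permutation p = 0.0857, n = 4 each). The part of later B-lineage cells in each result below was not tested. Fewer cells of a type and less RNA per cell cannot be told apart in these bulk samples.

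On build mm10 the 6 segments lie on the plus strand of chromosome 6, at chr6:70722562-70722599 (IGKJ1), chr6:70722916-70722954 (IGKJ2), chr6:70723223-70723260 (IGKJ3), chr6:70723548-70723585 (IGKJ4), chr6:70723886-70723923 (IGKJ5) and chr6:70726435-70726754 (IGKC), as the read tables give them. All 6 starts equal those of GENCODE M21. Neighbouring Jk segments are 268 to 316 bases apart, and 2511 bases separate IGKJ5 from IGKC. The 4 working Jk segments are shown from their first base, since their letters decide which Jk a contig carries, and capitals mark framework positions at which they differ among themselves.
IGKJ1: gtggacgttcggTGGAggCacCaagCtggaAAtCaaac
IGKJ2: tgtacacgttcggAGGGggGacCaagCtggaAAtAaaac
IGKJ4: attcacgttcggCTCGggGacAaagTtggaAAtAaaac
IGKJ5: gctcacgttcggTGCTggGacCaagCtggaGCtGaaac
The bases up to the codon of the conserved phenylalanine (ttc) belong to the CDR3, 11 bases for IGKJ2 and 10 for the other 3, and the 28 bases after it form the last framework region. Within the first 20 framework bases, IGKJ1 differs from IGKJ2 and from IGKJ5 at 3 positions and from IGKJ4 at 7. The CDR3 ends of these segments are short and alike, so a contig that stops soon after the CDR3 carries little that separates them.

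The junction found in most samples is shown for each Jk, with the bases that match the germline Jk end in capitals.
IGKJ1 junction: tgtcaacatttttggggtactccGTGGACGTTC
IGKJ2 junction: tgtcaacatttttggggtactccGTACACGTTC
IGKJ4 junction: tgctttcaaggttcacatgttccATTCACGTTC
IGKJ5 junction: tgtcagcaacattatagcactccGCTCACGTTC
The first 3 were found in all 8 samples and the IGKJ5 junction in 6, of which 2 were knockouts and 4 controls. Each has 33 bases (11 residues), keeps 10 germline Jk bases and was read as the same Jk from the framework in every sample that had it. The IGKJ1 and IGKJ2 junctions share their V part, for which the contigs list IGKV12 genes, and differ in the Jk end.

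IGKC, which encodes the constant part of the chain, took most of the reads among the 6. It had 31188, 25784, 2810 and 62691 reads in knockouts 1 to 4, against 50068, 56600, 40603 and 53721 reads in controls 1 to 4. As a share of light-chain locus reads this was 50.2, 49.8, 47.2 and 43.2% in knockouts, against 50.6, 47.6, 48.2 and 46.9% in controls. The groups overlapped, and knockout 4 had the lowest share of the 8. The mean was 47.6 ± 3.19% in knockouts and 48.3 ± 1.60% in controls (SD, n = 4 each; two-sided exact permutation p = 0.714). Knockout 3 was far the shallowest sample, with 5956 light-chain locus reads, against 51809 to 144978 in the other 3 knockouts and 84230 to 118807 in the controls.

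IGKJ1 had 885, 661, 37 and 704 reads in knockouts 1 to 4, against 1064, 990, 669 and 1113 reads in controls 1 to 4. Its share of all Jk reads was 48.6, 47.9, 26.6 and 21.9% in knockouts, against 37.6, 33.0, 32.7 and 37.2% in controls. The 4 knockouts lay on both sides of the controls, 2 above all of them and 2 below, and the means of 36.2 ± 13.98% in knockouts and 35.2 ± 2.62% in controls were close (exact permutation p = 0.886, n = 4 each).

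IGKJ2 had 225, 311, 37 and 1002 reads in knockouts 1 to 4, against 824, 1021, 592 and 809 reads in controls 1 to 4. Its share of Jk reads was 12.3, 22.5, 26.6 and 31.1% in knockouts, against 29.1, 34.1, 29.0 and 27.1% in controls. Knockout 4 stood among the controls and the other 3 knockouts lay below them. The difference of -6.65 percentage points did not pass the test (exact permutation p = 0.171, n = 4 each), and without knockout 1 it was -3.04 points. Over all light-chain locus reads, the share of IGKJ2 was 0.362, 0.6003, 0.621 and 0.691% in knockouts, against 0.832, 0.859, 0.703 and 0.706% in controls. On that scale every knockout lay below every control, which was so for 1 of the 6 members, while 19.2% of the 125 segments with at least 10 reads had all knockouts below all controls and 21.6% did not overlap in either direction. The share among the members is thus near that of the whole light chain. Locus reads also include those of lambda segments. Of the IGKC, Jk and IGKV reads alone, the IGKJ2 shares of knockouts and controls overlapped.

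IGKJ4 had 311, 217, 24 and 903 reads in knockouts 1 to 4, against 468, 445, 347 and 329 reads in controls 1 to 4. Its share of Jk reads was 17.1, 15.7, 17.3 and 28.1% in knockouts, against 16.5, 14.9, 16.98 and 11.01% in controls. Knockout 4 stood well above the other 7 samples (exact permutation p = 0.143, n = 4 each), and without it the difference was 1.84 percentage points, against 4.69 with all samples. IGKJ5, the last segment before IGKC, had shares of 21.7, 13.6, 28.1 and 18.7% in knockouts, against 16.6, 17.8, 20.9 and 24.3% in controls, and these overlapped (exact permutation p = 0.857, n = 4 each). IGKJ3 had 5, 4, 2 and 5 reads in knockouts and 5, 8, 9 and 10 in controls, at most 1.44% of Jk reads in any sample, and its share in knockout 3 rests on 2 reads.

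**Figure D1:**
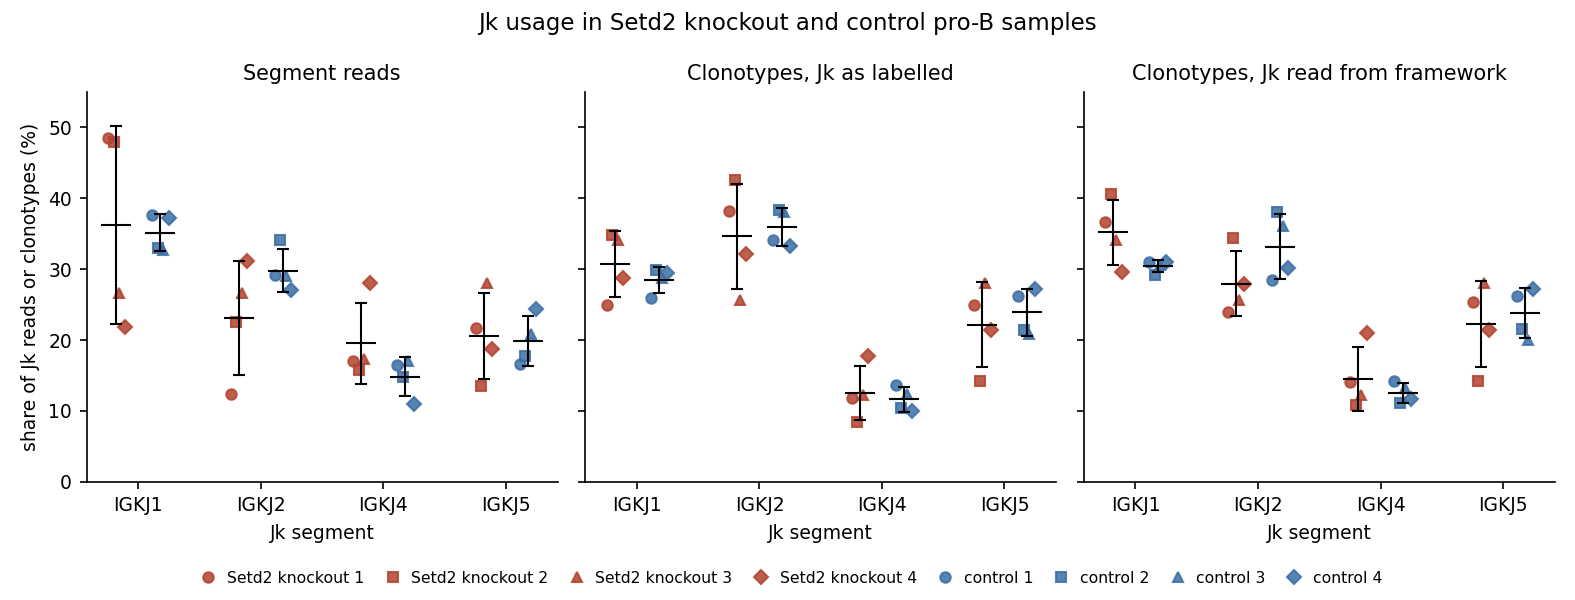
Share of each Jk (vertical axes, %) in segment reads, in clonotypes by the deposited label and in clonotypes by the framework bases, for 4 Setd2 knockouts (red, left of each pair) and 4 controls (blue, right of each pair). Points are samples, the horizontal line is the group mean and the bars are 1 SD. IGKJ1 read shares of the knockouts ran from 21.9 to 48.6%, around the 32.7 to 37.6% of the controls.

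The ratio of downstream to upstream Jk reads was 0.668 in knockouts and 0.534 in controls as geometric means, a fold of 1.25 that did not pass the test (log2 difference 0.32, exact permutation p = 0.286, n = 4 each). The log2 difference was 0.55 without knockout 2, 0.21 without knockout 3 and 0.19 without knockout 4, against 0.32 with all samples. IGKC reads per Jk read were 18.8 in knockouts and 18.6 in controls as geometric means (log2 difference 0.02, exact permutation p = 0.8, n = 4 each). IGKC reads per IGKV read were 1.16 in knockouts and 1.07 in controls as geometric means (log2 difference 0.12, exact permutation p = 0.429, n = 4 each). IGKC reads per read of IGHM, the constant region of the IgM heavy chain, were 1.64, 2.40, 0.297 and 2.63 in knockouts 1 to 4, against 2.15, 3.84, 2.98 and 3.82 in controls 1 to 4. These ranges overlapped (exact permutation p = 0.0857, n = 4 each), and knockout 3 was the lowest. Per read of any heavy constant region, IGKC reads were 1.11, 1.40, 0.276 and 1.46 in knockouts, against 1.01, 1.59, 1.43 and 1.77 in controls (exact permutation p = 0.286, n = 4 each).

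With edgeR's quasi-likelihood test on the segment counts and Benjamini-Hochberg adjustment, 0 of 125 light-chain segments (0%) were called at an adjusted p under 0.05, and 0 of the 6 members. At an unadjusted p under 0.05 there were 26 segments, 6 higher and 20 lower in knockouts, or 20.8% of those tested, and no member was among them. DESeq2 called 14 segments (11.2%), 8 higher and 6 lower, and 0 members. The log2 fold changes of the members had a median of 0.03, against -0.54 over all 125 segments. IGKJ2 had a log2 fold change of -0.45 (adjusted p = 0.596 by edgeR) and IGKJ4 of 0.33 (adjusted p = 0.732). The value of IGKC was -0.02 (adjusted p = 0.884 by edgeR). IGKC made up 43.2 to 50.6% of the locus reads that served as library size, which ties its value to that total. The distance of IGKC from the median of all segments therefore cannot be read as a gain by itself. With edgeR's TMM scaling, which set the median of all segments at 0.04, IGKC became 0.58 (adjusted p = 0.183) and IGKJ2 became 0.16 (adjusted p = 0.864), so neither has a direction that holds across scalings. Relative to the median of all segments, IGKC stood 0.52 higher as counted and 0.54 higher with TMM on the log2 scale.

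**Figure D2:**
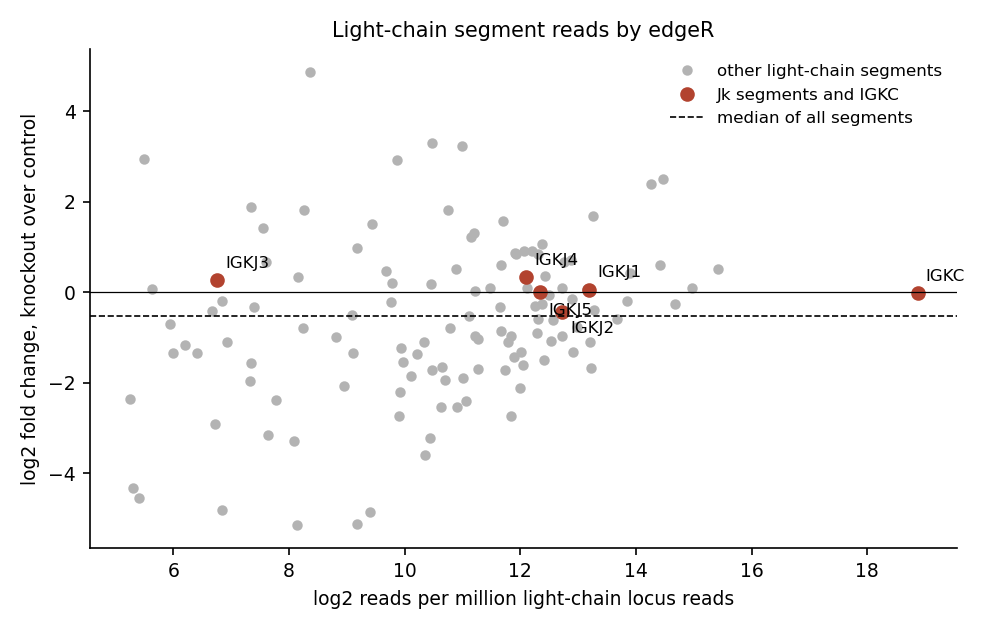
Log2 fold change of knockouts over controls (vertical axis) against the log2 average abundance per library size that edgeR gives, on the horizontal axis, for 125 light-chain segments, by edgeR. Red points are the 5 Jk segments and IGKC, grey points the other segments, and the dashed line marks the median of -0.54; IGKC lies at -0.02 and IGKJ2 at -0.45.

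Over the 8 samples the segments whose share of locus reads moved most like that of IGKC were IGKV16-104 (Pearson r = 0.93 on log2 shares), IGKV9-124 (0.90) and IGKJ1 (0.88), out of 124 compared. For the sum of the Jk segments they were IGKV16-104 (0.90), IGKC (0.86) and IGKV5-48 (0.86), out of 120. These values describe 8 samples that share a library-wide total for each share, so the segments are not independent of one another.

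Each distinct CDR3 nucleotide sequence of a sample was then counted once for each Jk it carried, as a clonotype. Knockouts 1 to 4 held 144, 155, 82 and 243 kappa clonotypes, against 510, 720, 543 and 706 in controls 1 to 4. The 2 groups did not overlap in this count, and its part in the differences below was not tested. By the deposited label, IGKJ1 made up 25.0, 34.8, 34.1 and 28.8% of kappa clonotypes in knockouts, against 25.9, 29.9, 28.7 and 29.5% in controls. IGKJ2 made up 38.2, 42.6, 25.6 and 32.1% in knockouts, against 34.1, 38.3, 38.1 and 33.3% in controls. These groups overlapped for both upstream segments. IGKJ4 was the least used of the 4, at 11.8, 8.39, 12.2 and 17.7% in knockouts, against 13.7, 10.4, 12.3 and 10.1% in controls. IGKJ5 made up 25.0, 14.2, 28.05 and 21.4% in knockouts, against 26.3, 21.4, 20.8 and 27.2% in controls. None of the 4 differences passed the test (exact permutation p = 0.429, 0.771, 0.743 and 0.686 for IGKJ1, IGKJ2, IGKJ4 and IGKJ5, n = 4 each).

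The contigs also hold bases after the CDR3, and these allow the Jk to be read independently of the label. Of the 3103 contigs, 2942 could be read, with the first 20 framework bases compared, at least 10 of them present, at most 2 mismatches and at least 2 fewer mismatches than the next Jk. Label and framework named different Jk segments in 425 of them (14.4%), and 381 of the 425 were exchanges between IGKJ1 and IGKJ2. IGKJ2 was the label of 236 contigs with the IGKJ1 framework, and IGKJ1 that of 145 contigs with the IGKJ2 framework. Examples are shown from the first base of the CDR3 through 20 framework bases, with the framework positions that differ among the 4 segments in capitals.
labelled IGKJ2, framework of IGKJ1: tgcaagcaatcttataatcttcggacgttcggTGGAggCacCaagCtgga
labelled IGKJ1, framework of IGKJ2: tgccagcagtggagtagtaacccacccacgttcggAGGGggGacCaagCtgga
labelled IGKJ2, framework of IGKJ4: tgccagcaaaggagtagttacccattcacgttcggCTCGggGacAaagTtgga
The capitals of each are those of the framework segment shown above and not of the labelled one. The first was found with this label and framework in 5 samples, the second in 3 and the third in 1.

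The mismatch followed the allele named in the label. Of readable contigs labelled IGKJ1*01, 0 of 432 had another framework, which allows a share of up to 0.694%. Of those labelled IGKJ1*02, 147 of 395 did (37.2%), and of those labelled IGKJ2*01, 236 of 1031 (22.9%). The small allele classes stood apart, with 28 of 40 contigs labelled IGKJ2*02 carrying the IGKJ4 framework and 5 of 5 labelled IGKJ4*02 carrying that of IGKJ5. By contrast, 4 of 357 contigs labelled IGKJ4*01 and 3 of 682 labelled IGKJ5*01 had another framework. The last bases of the CDR3, which the framework reading did not use, matched the germline end of the framework Jk over more bases than that of the labelled Jk in 390 of the 425 (91.8%), over fewer in 4 and equally in 31. An exchange between upstream and downstream segments occurred in 36 of the 2942 contigs (1.22%).

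The share of contigs whose label and framework differed was 18.3, 23.0, 2.44 and 9.13% in knockouts 1 to 4, against 13.1, 15.8, 13.5 and 15.4% in controls 1 to 4. The groups overlapped, and knockout 3, with 82 readable contigs, was lowest (exact permutation p = 0.8, n = 4 each). Among 356 CDR3 sequences found in 2 or more samples, 69 carried more than 1 Jk label and 43 more than 1 framework Jk.

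**Figure D3:**
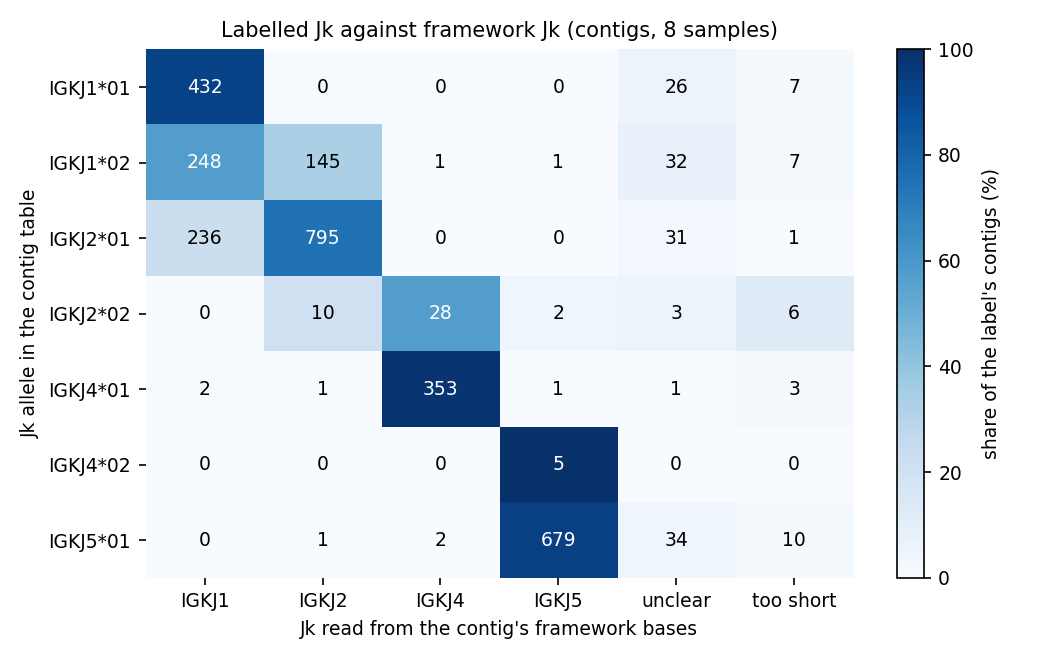
Contigs by the Jk allele in the deposited label (rows) and the Jk read from the framework bases (columns), summed over 4 knockouts and 4 controls. Numbers are contigs and the colour is the percent of the row; 236 contigs of the IGKJ2*01 row lie in the IGKJ1 column and 145 of the IGKJ1*02 row in the IGKJ2 column.

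Read from the framework, which also placed 10 complete contigs without a Jk label, IGKJ1 made up 36.6, 40.5, 34.1 and 29.6% of clonotypes in knockouts, against 31.0, 29.2, 30.6 and 31.0% in controls. The mean was 35.2 ± 4.58% in knockouts and 30.4 ± 0.862% in controls (SD, n = 4 each; exact permutation p = 0.114). Knockouts 1 to 3 lay above every control and knockout 4 among them. IGKJ2 made up 23.9, 34.5, 25.6 and 27.9% in knockouts, against 28.5, 38.1, 36.1 and 30.1% in controls (exact permutation p = 0.143, n = 4 each). In knockouts the order of the 2 upstream means thus depended on the reading. By label the means were 34.6% for IGKJ2 and 30.7% for IGKJ1, and by framework 27.98% for IGKJ2 and 35.2% for IGKJ1. Knockout 3 had IGKJ1 above IGKJ2 by both readings. In controls the framework means were 33.2% for IGKJ2 and 30.4% for IGKJ1, in the same order as the label means of 35.96% and 28.5%. IGKJ4 and IGKJ5 changed little between the readings, and the downstream share by framework was 36.8 ± 7.97% in knockouts and 36.4 ± 3.92% in controls (exact permutation p = 0.914, n = 4 each).

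The kappa CDR3 was nearly fixed in length. Loops of 9 residues between the conserved cysteine and phenylalanine, 11 residues with both ends, made up 523 of 624 clonotypes in knockouts (83.8%) and 2146 of 2479 in controls (86.6%). Mean length with both ends was 10.97, 10.93, 10.96 and 11.04 residues in knockouts, against 10.97, 10.96, 10.99 and 10.98 residues in controls (exact permutation p = 0.971, n = 4 each). By segment, the share of 9-residue loops averaged 82.4 ± 5.52% in knockouts and 84.9 ± 2.92% in controls for IGKJ1, and 86.8 ± 5.19% in knockouts and 89.4 ± 3.03% in controls for IGKJ5. For IGKJ2 it was 85.1 ± 3.46% in knockouts and 85.0 ± 3.47% in controls, and for IGKJ4 85.8 ± 8.52% in knockouts and 90.7 ± 7.48% in controls. The 4 exact permutation p-values ran from 0.4 to 0.971 (n = 4 each). Within samples, clonotypes with downstream segments were longer by 0.0191 residues on average by label, in 7 of 8 samples (two-sided exact sign-flip permutation p = 0.0234), and by 0.0142 residues by framework (exact p = 0.406), so that the call depended on the reading of the Jk.

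The third residue from the CDR3 end is the one at which the germline Jk segments differ most, with tryptophan in IGKJ1, tyrosine in IGKJ2, phenylalanine in IGKJ4 and leucine in IGKJ5. By framework, the germline residue stood there in 437 of 922 IGKJ1 clonotypes (47.4%), 715 of 954 of IGKJ2 (74.9%), 278 of 386 of IGKJ4 (72.0%) and 551 of 690 of IGKJ5 (79.9%), summed over the 8 samples. IGKJ1 stood apart from the other 3, with arginine at that place in 27.0% and proline in 18.9% of its clonotypes. Arginine was found in 0.314% of IGKJ2 clonotypes by framework and in 18.1% by label, while among clonotypes labelled IGKJ1 it made up 6.23%. The reading of the Jk thus sets which segment the arginine junctions are counted under.

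In IGKJ1 the germline tryptophan was kept in 38.5, 28.3, 71.4 and 65.2% of clonotypes in knockouts, against 46.1, 47.4, 46.5 and 47.6% in controls. These are values by framework, with 2 knockouts below and 2 above the closely spaced controls (exact permutation p = 0.771, n = 4 each). By label they were 58.3, 35.2, 71.4 and 67.1% in knockouts, against 58.3, 50.2, 51.9 and 52.4% in controls, with knockout 1 level with the highest control and knockout 2 alone below all controls (exact permutation p = 0.629, n = 4 each). In IGKJ4, again by framework, the germline phenylalanine was kept in 15 of 20, 11 of 16, 8 of 10 and 22 of 49 clonotypes in knockouts 1 to 4, against 56 of 70, 51 of 75, 53 of 68 and 62 of 78 in controls 1 to 4 (exact permutation p = 0.371, n = 4 each). Knockout 4, which holds 49 of the 95 IGKJ4 clonotypes of the knockouts, was the low sample. The number of germline Jk bases missing from the CDR3 end was lowest for IGKJ4 and highest for IGKJ2 by label, at 0.584 ± 0.318 and 2.33 ± 0.598 bases in knockouts, against 0.873 ± 0.171 and 2.46 ± 0.113 bases in controls. The count starts from 11 germline bases for IGKJ2 and from 10 for the other segments. An IGKJ2 junction that keeps 10 bases thus counts 1 as missing, and the segments are not ranked on the same length. By framework the IGKJ2 value was 1.75 ± 0.211 bases in knockouts and 1.99 ± 0.130 in controls (exact permutation p = 0.0857, n = 4 each). The IGKJ4 value by framework was 0.792 ± 0.329 bases in knockouts and 0.840 ± 0.121 in controls (exact permutation p = 0.771, n = 4 each). Its difference was thus -0.288 bases by label (exact permutation p = 0.171, n = 4 each) and -0.048 bases by framework.

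The V partners were grouped by position, since a join to a downstream segment can follow an earlier join and V segments differ in their distance from Jk. Families IGKV3, IGKV6, IGKV7 and IGKV8 were taken as nearest to Jk, IGKV4, IGKV5, IGKV12, IGKV13 and IGKV18 as middle and the remaining families as farthest. A family could be given to 1894 of the 3103 clonotypes (61.0%). The shares of V classes and families below are shares of clonotypes with a family. Clonotypes that list genes of more than 1 family were given none. This holds also where all listed families lie in 1 position class, as with IGKV6 beside IGKV8 genes. The effect of leaving these out on the class shares was not tested. Within each sample, clonotypes with IGKJ4 or IGKJ5 had a lower share of farthest V families than those with IGKJ1 or IGKJ2, by 14.1 percentage points on average (SD 11.03, n = 8), in 7 of 8 samples (two-sided exact sign-flip permutation p = 0.0156, adjusted over 4 such comparisons 0.0313). Knockout 2 was the exception. With the Jk read from the framework the difference was -15.1 points and negative in 8 of 8 samples (exact p = 0.0078, the smallest that the sign arrangements allow). The share of middle families was higher with downstream segments by 9.31 points, in 8 of 8 samples (exact p = 0.0078), but with only contigs that list a single V gene it was -0.35 points (exact p = 0.906). The share of nearest families was higher with downstream segments by 4.78 points, in 7 of 8 samples (exact p = 0.0469, and 0.0156 to 0.0938 with each sample left out, under 0.05 only without knockout 2), and by 11.3 points with a single listed V gene (exact p = 0.0078). The 3 class shares add up to the whole, so they are not independent.

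The families were uneven in their Jk partners. IGKV10, a farthest family, had IGKJ4 or IGKJ5 in 26 of 186 clonotypes over the 8 samples (13.98%, 95% Wilson interval 9.72 to 19.7%), and its downstream share lay below that of its own sample in 8 of 8 samples. IGKV19, also farthest, had 5 of 32 (15.6%, interval 6.86 to 31.8%). IGKV1, the most frequent family, had 111 of 381 (29.1%, interval 24.8 to 33.9%) and lay below its own sample in 7 of 8. IGKV4, a middle family, had 119 of 272 (43.8%, interval 38.0 to 49.7%) and lay above its own sample in 8 of 8. IGKV6, a nearest family, had 108 of 247 (43.7%, interval 37.7 to 50.0%) and lay above in 6 of 8. No position class was uniform. Of the farthest families, IGKV17 had 25 of 48 (52.1%, interval 38.3 to 65.5%) and IGKV16 14 of 28. Of the nearest, IGKV3 had 33 of 113 (29.2%, interval 21.6 to 38.2%) and lay above its own sample in 4 of 8, while IGKV8 had 45.5%. Of the middle, IGKV12 had 70 of 201 (34.8%, interval 28.6 to 41.6%) and lay above in 4 of 8. IGKV13 had 7 of 25 and IGKV5 44.3%. These family values are a description, with clonotypes of 1 sample sharing their source, and the intervals cover counting error only.

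**Figure D4:**
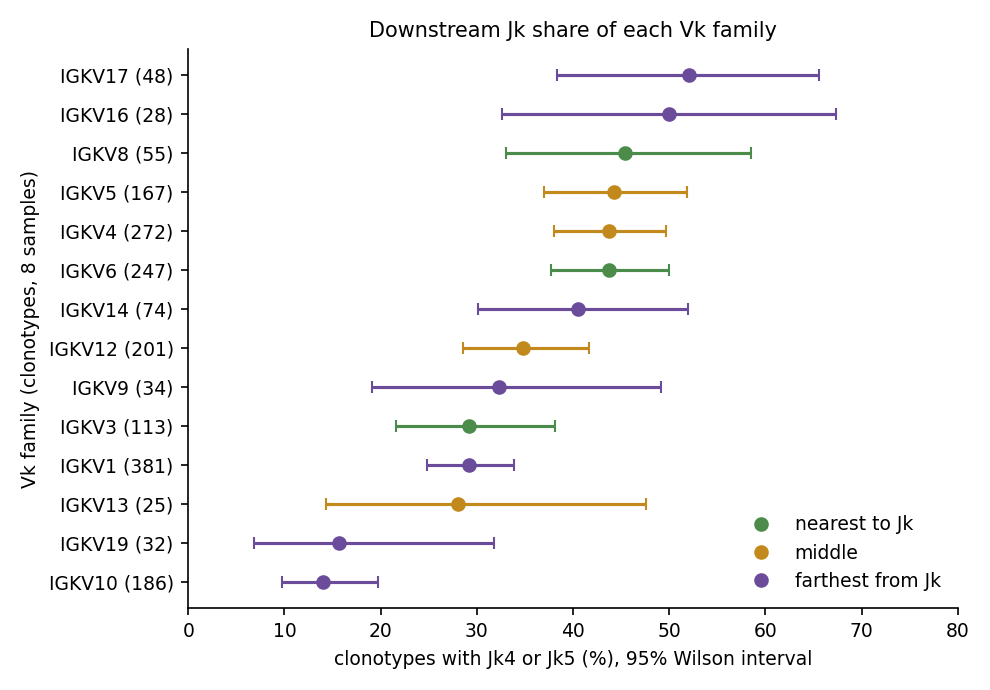
Percent of clonotypes with IGKJ4 or IGKJ5 (horizontal axis) for each Vk family with at least 20 clonotypes (vertical axis, clonotypes in parentheses), over 4 knockouts and 4 controls together. Points are shares, bars 95% Wilson intervals of counting error and colours the position class; IGKV10 lies at 13.98% and IGKV17 at 52.1%.

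Between genotypes, 3 of the 38 readouts computed on Jk segments and IGKC (7.89%) had an exact permutation p under 0.05, all on the position class of the V partner, and none passed Benjamini-Hochberg adjustment over the 38 (adjusted p = 0.362 for each). Nearest families made up 13.8, 15.7, 14.8 and 7.69% of clonotypes with IGKJ1 or IGKJ2 and a V family in knockouts, against 22.6, 21.5, 24.3 and 21.5% in controls. These were 8 of 58, 13 of 83, 4 of 27 and 7 of 91 clonotypes in knockouts 1 to 4. In controls 1 to 4 they were 44 of 195, 64 of 297, 53 of 218 and 56 of 260. Every knockout lay below every control, by 9.5 percentage points on average (exact permutation p = 0.0286, n = 4 each), and with the framework Jk by 10.1 points (exact permutation p = 0.0286). Middle families made up 34.5, 39.8, 40.7 and 34.1% of the same clonotypes in knockouts, against 24.6, 34.01, 30.7 and 32.3% in controls (exact permutation p = 0.0286, n = 4 each). The lowest knockout and the highest control lay within 0.1 point of each other, and with the framework Jk the test gave p = 0.229 (exact permutation).

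Of clonotypes with IGKJ4 or IGKJ5 and a V family, nearest families made up 14.7, 11.5, 30.4 and 13.6% in knockouts, against 28.6, 29.6, 26.8 and 25.0% in controls. Knockout 3, with 23 such clonotypes among its 33 with IGKJ4 or IGKJ5, stood above all controls and the other 3 knockouts below them (exact permutation p = 0.143, n = 4 each). Middle families made up 44.1, 42.3, 47.8 and 62.7% in knockouts, against 35.7, 37.6, 33.0 and 41.9% in controls (exact permutation p = 0.0286, n = 4 each), and with the framework Jk the test gave p = 0.0571 (exact permutation). Without knockout 4 the difference in middle families was 7.69 points, against 12.2 with all samples. The difference of nearest families between knockouts and controls was -9.5 points with upstream and -9.93 points with downstream segments, and the test of the difference between the Jk classes by genotype gave an exact permutation p = 0.914 (n = 4 each). With a single listed V gene the 2 values were less alike, at -8.93 points with upstream and -3.61 points with downstream segments (exact permutation p = 0.0286 and 0.686). The switched share of heavy constant-region reads, given above, also separated the 2 groups, and its part in these differences was not tested.

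**Figure D5:**
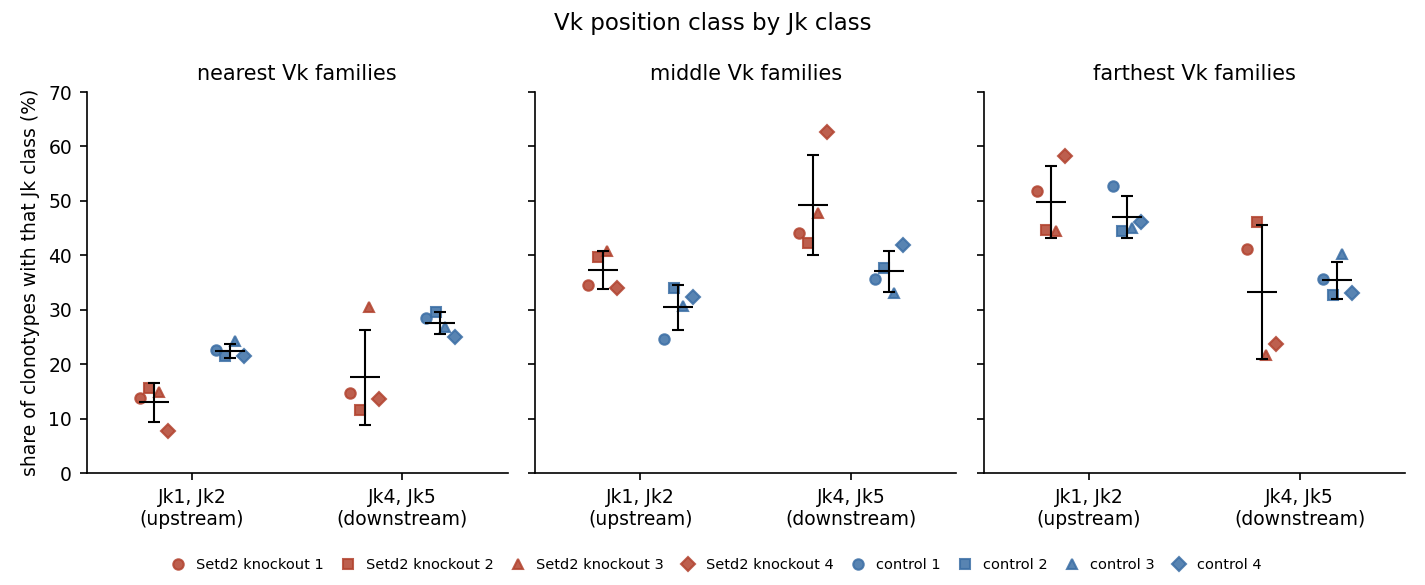
Share of nearest, middle and farthest Vk families (vertical axes, %) among clonotypes with a V family and upstream (Jk1, Jk2) or downstream (Jk4, Jk5) segments, for 4 Setd2 knockouts (red, left of each pair) and 4 controls (blue, right of each pair). Points are samples, lines group means and bars 1 SD; nearest families with upstream segments lie between 7.69 and 15.7% in knockouts and between 21.5 and 24.3% in controls.

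No single family carried these differences past the test. Of 28 comparisons of 14 families with upstream or downstream segments, an addition made after seeing the data, 0 (0%) had an exact permutation p under 0.05. The shares are again of clonotypes with a V family. IGKV6 made up 5.17, 8.43, 11.1 and 2.20% of clonotypes with upstream segments in knockouts, against 10.8, 16.2, 13.3 and 10% in controls (exact permutation p = 0.0857, adjusted 0.48, n = 4 each). With downstream segments, where the p was the lowest of the 28, it made up 5.88, 7.69, 17.4 and 8.47% in knockouts, against 18.3, 14.4, 18.8 and 20.6% in controls (exact permutation p = 0.0571, adjusted 0.48, n = 4 each). IGKV12 made up 20.7, 14.5, 14.8 and 9.89% of clonotypes with upstream segments in knockouts, against 8.21, 10.1, 7.34 and 12.3% in controls (exact permutation p = 0.0857, adjusted 0.48, n = 4 each). With downstream segments it made up 8.82, 19.2, 17.4 and 25.4% in knockouts, against 9.52, 6.40, 4.46 and 11.25% in controls (exact permutation p = 0.0857, adjusted 0.48, n = 4 each). Knockout 3 lay among the controls for IGKV6 with either Jk class, knockout 4 for IGKV12 with upstream segments and knockout 1 for IGKV12 with downstream segments.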

How the data were processed

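Poly-A RNA of 8 samples was sequenced with 75-base single-end reads, per the labels' protocols. The submitters' processing notes name STAR 2.5.1 and mm10, and the series' design text names the TRUST repertoire algorithm, with its version not given in the sources used here. The read counts per segment and per contig are whole numbers without normalization, as deposited by the authors. A clonal expression score per contig, as deposited by the authors, was used only to weight clonotypes: multiplied by the CDR3 length in bases, with 39 as the least length, it gave whole numbers within 0.01 for 100% of contigs. The product is called CDR3-spanning reads here, which is an inference, as no header defines the score. The depth of the whole library is unknown; light-chain locus reads ran from 5956 to 144978.

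A clonotype was a distinct pair of CDR3 nucleotide sequence and Jk in a sample. Per-sample values were compared by two-sided exact permutation tests (70 arrangements, smallest p 0.0286), and within samples by sign flips, in Python 3.11.15 with numpy 2.4.6, pandas 2.3.3 and scipy 1.17.1. Segment counts with at least 10 reads over all samples were tested with edgeR 4.0.16 in R 4.3.3, with locus reads as library size and Benjamini-Hochberg adjustment over 125 segments, and DESeq2 1.42.0 as an alternative. The tests were checked on simulated data. Germline sequences came from GENCODE M21 transcripts. Jk, IGKC, the most alike segments and families with at least 20 clonotypes were named. Members and lists were chosen with earlier results of these data known. The Jk read from the framework, the weighting by CDR3-spanning reads and the single-family comparisons were added after seeing the data. No 2 samples agreed within sampling noise. Reads of near-identical V paralogs can be divided between them, and intervals cover counting error only.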

Additional observations from a re-analysis of the deposited data

Results flagged for a closer look

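In 76 groups of 4 samples, 3 held a sample far from the other 3, and chance gives about 1 in 20. Knockout 3 had 1.44% of its Jk reads on IGKJ3, against 0.155 to 0.290% in the other knockouts, which rests on 2 reads. Knockout 4 had 28.1% of its Jk reads on IGKJ4, against 15.7 to 17.3% in the other knockouts. Knockout 3 had nearest V families in 30.4% of clonotypes with downstream Jk segments and a V family, against 11.5 to 14.7% in the other knockouts.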

How the results depend on the processing

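Over 49 results and 700 alternatives, 552 kept direction and side of the threshold, 53 lost a call, 2 gained one, 92 turned in sign and 1 moved. The lower share of nearest V families with upstream Jk in knockouts kept its direction and p = 0.0286 (exact permutation) under the alternatives other than the block and the samples left out, where both V-gene alternatives use the same contigs and gave the same -8.93, and the lower share of farthest families with downstream Jk within samples kept its call under every alternative run. Differences below are knockout minus control, or downstream minus upstream where within samples, in percentage points for shares, residues or bases for lengths and log2 for fold changes, and the cause of each change was not tested. The alternative by gene number also uses only contigs with a single listed V gene, so it changes 2 choices at once. Control 3 held 54388 contig reads, against 189 to 2608 in the other 7 samples, with 1654 CDR3-spanning reads, against 169 to 2105, so its weights by contig reads are not on the scale of the others. A minimum of 2 contig reads kept 71.6% of contigs in control 3, against 59.8 to 78.7% in the others. With kappa reads as denominator, the sign turned, to 2.03 for the IGKC share of light-chain locus reads. On the log2 scale of the share, the sign turned, to -0.0403 for the share of IGKJ1 in Jk reads. Weighted by contig reads, the sign turned, to 0.00209 for the mean CDR3 length of IGKJ1, 2.40 for the downstream Jk share of kappa clonotypes, 0.0396 for the mean CDR3 length over all Jk and 0.444 for the genotype difference in downstream minus upstream nearest Vk share. Weighted by contig reads, the call was lost, at 2.89 for the middle Vk share with upstream Jk and 4.33 for the within-sample downstream minus upstream nearest Vk share. Weighted by contig reads, a call was gained, at -11.7 for the nearest Vk share with downstream Jk. With at least 2 contig reads, the sign turned, to 0.035 for the mean CDR3 length of IGKJ1, 0.484 for the share of 9-residue loops of IGKJ4, 0.902 for the downstream Jk share of kappa clonotypes and 0.0319 for the mean CDR3 length over all Jk. With at least 2 contig reads, the sign turned, to 0.424 for the genotype difference in downstream minus upstream nearest Vk share. With at least 2 contig reads, the call was lost, at 5.21 for the middle Vk share with upstream Jk and 0.0187 for the within-sample downstream minus upstream CDR3 length. With at least 2 contig reads, a call was gained, at -10.4 for the nearest Vk share with downstream Jk. With the Jk read from the framework, the sign turned, to 0.0297 for the mean CDR3 length of IGKJ1, 1.62 for the share of 9-residue loops of IGKJ1, -0.033 for the mean CDR3 length of IGKJ2 and -1.54 for the share of 9-residue loops of IGKJ2. With the Jk read from the framework, the sign turned, to -0.000529 for the mean CDR3 length of IGKJ4, 0.418 for the downstream Jk share of kappa clonotypes, 0.00386 for the mean CDR3 length over all Jk and 2.66 for the genotype difference in downstream minus upstream nearest Vk share. With the Jk read from the framework, the call was lost, at 5.37 for the middle Vk share with upstream Jk, 11.5 for the middle Vk share with downstream Jk and 0.0142 for the within-sample downstream minus upstream CDR3 length. With distinct CDR3 amino acid sequences, the sign turned, to -0.583 for the share of 9-residue loops of IGKJ2. With distinct CDR3 amino acid sequences, the call was lost, at 6.08 for the middle Vk share with upstream Jk, 5.12 for the within-sample downstream minus upstream nearest Vk share and 0.0161 for the within-sample downstream minus upstream CDR3 length. With sequences 1 base apart merged, the sign turned, to -0.752 for the share of 9-residue loops of IGKJ2, -0.153 for the share of IGKJ4 in kappa clonotypes and -0.0407 for the missing germline bases of IGKJ5. With sequences 1 base apart merged, the call was lost, at 6.18 for the middle Vk share with upstream Jk, 4.28 for the within-sample downstream minus upstream nearest Vk share and 0.0182 for the within-sample downstream minus upstream CDR3 length. Weighted by CDR3-spanning reads, the sign turned, to 0.00945 for the mean CDR3 length over all Jk and 3.15 for the genotype difference in downstream minus upstream nearest Vk share. Weighted by CDR3-spanning reads, the call was lost, at 4.82 for the middle Vk share with upstream Jk. With a single listed V gene, the sign turned, to 5.33 for the genotype difference in downstream minus upstream nearest Vk share, -0.928 for the genotype difference in downstream minus upstream middle Vk share and -0.351 for the within-sample downstream minus upstream middle Vk share. With a single listed V gene, the call was lost, at 7.40 for the middle Vk share with upstream Jk and 6.47 for the middle Vk share with downstream Jk. With V classes by the gene number of a single listed V gene, the sign turned, to 5.33 for the genotype difference in downstream minus upstream nearest Vk share. With V classes by the gene number of a single listed V gene, the call was lost, at 4.99 for the middle Vk share with upstream Jk, 8.14 for the middle Vk share with downstream Jk and 1.38 for the within-sample downstream minus upstream middle Vk share. With the library size taken without IGKC, the sign turned, to -0.00878 for the log2 fold change of IGKJ5. With TMM, the sign turned, to 0.579 for the log2 fold change of IGKC and 0.158 for the log2 fold change of IGKJ2. With TMMwsp, the sign turned, to 0.65 for the log2 fold change of IGKC and 0.24 for the log2 fold change of IGKJ2. With DESeq2, the sign turned, to 0.651 for the log2 fold change of IGKC and 0.262 for the log2 fold change of IGKJ2. The correlations of same-numbered deviations were low, at 0.174, -0.0375, 0.0367 and 0.0682, which cannot settle whether the replicate numbers pair the samples. With the replicate block, which allows 16 arrangements and no p under 0.125, the calls were lost at an unchanged -9.5 (nearest with upstream Jk), 6.85 (middle with upstream Jk) and 12.2 (middle with downstream Jk), the sign turned to -0.0785 for the edgeR log2 fold change of IGKJ1 and -0.0312 for that of IGKJ5, and edgeR called 0 segments.

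Ranges with each sample left out were -1.59 to 0.725 for the IGKC share of light-chain locus reads, -0.198 to 0.0401 for the IGKJ share of light-chain locus reads, -3.03 to 5.87 for the share of IGKJ1 in Jk reads, -0.0648 to 0.363 for the share of IGKJ3 in Jk reads and -1.87 to 2.97 for the share of IGKJ5 in Jk reads. Further ranges were -0.0146 to 0.0654 for the log2 ratio of IGKC to Jk reads, -0.0637 to 0.0233 for the mean CDR3 length of IGKJ1, -3.80 to 0.139 for the share of 9-residue loops of IGKJ1, -4.00 to 1.66 for the share of IGKJ2 in kappa clonotypes and -1.33 to 1.496 for the share of 9-residue loops of IGKJ2. The same ranges were -0.321 to 0.135 for the missing germline bases of IGKJ2, -0.838 to 2.26 for the share of IGKJ4 in kappa clonotypes, -0.0271 to 0.0454 for the mean CDR3 length of IGKJ4, -3.72 to 0.899 for the share of IGKJ5 in kappa clonotypes and -0.0219 to 0.0469 for the mean CDR3 length of IGKJ5. They were -2.72 to 3.16 for the downstream Jk share of kappa clonotypes, -0.0239 to 0.0134 for the mean CDR3 length over all Jk, -10.4 to -7.73 for the nearest Vk share with upstream Jk, 4.91 to 8.04 for the middle Vk share with upstream Jk and -0.178 to 4.56 for the farthest Vk share with upstream Jk. They ran over 7.69 to 14.5 for the middle Vk share with downstream Jk, -6.57 to 1.57 for the farthest Vk share with downstream Jk, -4.11 to 2.47 for the genotype difference in downstream minus upstream nearest Vk share, -0.217 to 8.48 for the genotype difference in downstream minus upstream middle Vk share and -10.9 to 1.08 for the genotype difference in downstream minus upstream farthest Vk share. Such ranges were 3.24 to 6.06 for the within-sample downstream minus upstream nearest Vk share, -0.0484 to 0.0215 for the log2 fold change of IGKC, -0.207 to 0.276 for the log2 fold change of IGKJ1, -0.315 to 0.638 for the log2 fold change of IGKJ3 and -0.129 to 0.14 for the log2 fold change of IGKJ5. DESeq2 called 14 segments, against 0 with edgeR. With 1 sample left out of 4 against 4, no p under 0.0571 is possible, so the 3 genotype calls on V classes were lost by construction. No contig lists several Jk genes, so splitting such contigs between them gave no value. Depth limits knockout 3, where the 95% Wilson interval of the IGKJ1 share of Jk reads is 14.6 points wide, against 2.86 to 5.26 in the other 7 samples.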
